A study of Zea mays with 2 samples.

Results

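The basal endosperm transfer layer is the sheet of endosperm cells at the base of the maize kernel, where nutrients enter from the mother plant. Its genes were followed here in endosperm of dek33, a defective kernel mutant of maize (Zea mays), and of wild type, both at 15 days after pollination. They were the genes BET1, betl4 and betl10 together with every gene whose deposited description names the transfer layer, BETL, a basal layer antifungal protein or MEG1. This gave 9 of the 33283 genes listed. Each genotype is represented by 1 library value per gene, in FPKM, a fragment count scaled for transcript length and library size. The labels describe the design as triplicate. No source used here tells how the replicates became 1 value. The differences below therefore compare 2 libraries, carry no replicate error and have no test. The parental line and the nature of the dek33 allele are not given in the labels, although the gene is known to encode a reductase of riboflavin synthesis.

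Transfer cells carry wall ingrowths that enlarge the plasma membrane, and they take up sugars and amino acids released by maternal tissue. A cell wall invertase, encoded by miniature1 (mn1), splits the arriving sucrose. The MYB-related regulator MRP-1 is known to activate several transfer layer promoters. Many of the genes specific to these cells encode small secreted proteins rich in cysteine, some of them related to defensins or active against fungi.

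All 9 genes had a lower FPKM in the dek33 library than in the wild type library. Among all 21688 genes with at least 1 FPKM in 1 or both libraries, 4654 were lower in dek33. The 9 transfer layer genes were present at very different levels. In each library 5 of them, BET1, betl3, betl4, betl10 and bap2, exceeded 20 FPKM, while the other 4, a group of basal layer antifungal peptide genes on chromosome 10, stayed under 4 FPKM. None was listed at 0 in either library. Summed over the 9 genes, FPKM was 239 in dek33 and 439 in wild type, so that the dek33 sum was 1.84-fold lower. These sums made up 0.0314% of all FPKM in dek33 and 0.0653% in wild type. RNA of the whole endosperm cannot tell fewer transfer cells apart from less of these transcripts per cell. Embryo transcripts, given below, were also found in both libraries, and whether the tissue content of the 2 samples differed was not tested.

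BET1 (GRMZM2G082785, chromosome 2, 225662083 to 225662933, B73 RefGen_v3) was the most abundant of the 9 in both libraries. It encodes a small secreted protein and was among the transcripts by which the transfer layer was originally defined. Its dek33 level of 84.9 FPKM was 2.08-fold lower than its wild type level of 177 FPKM. By level, it ranked 1215 among all genes in dek33 and 278 in wild type. A neighbouring gene of the same description, GRMZM2G082799, begins 225659532 on the same chromosome and ends 2025 bases before BET1. This copy had 1.53 FPKM in dek33 and 1.19 FPKM in wild type, the opposite direction at a level far below that of BET1. Reads of such close copies can be exchanged, so the value of the copy is uncertain.

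The other BETL genes encode further small secreted proteins of the layer. The gene betl3 (GRMZM2G175976, chromosome 3, 132282587 to 132283333), whose product resembles defensins, had 37.3 FPKM in dek33 and 73.1 FPKM in wild type, a 1.96-fold lower level in the mutant. The gene betl4 (GRMZM2G073290, chromosome 4, 209022805 to 209023472), whose product resembles protease inhibitors of the Bowman-Birk type, had 27.7 FPKM in dek33 and 55.4 FPKM in wild type. BET1, betl3 and betl4 thus differed by nearly the same factor, although they lie on 3 chromosomes.

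The smallest differences among the 5 abundant genes were those of bap2 and betl10. The gene bap2 (GRMZM2G152655, chromosome 4, 34294927 to 34295919), also known as betl2, encodes an antifungal protein secreted toward the maternal tissue. It had 35.1 FPKM in dek33 and 59.2 FPKM in wild type, a 1.69-fold lower level in the mutant. The gene betl10 (GRMZM2G091445, chromosome 3, 155423558 to 155424150), described as a putative defensin, had 50.7 FPKM in dek33 and 64.4 FPKM in wild type, a 1.27-fold lower level in the mutant. In dek33 its level came next after that of BET1, and in wild type betl3 stood between them.

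**Figure D1:**
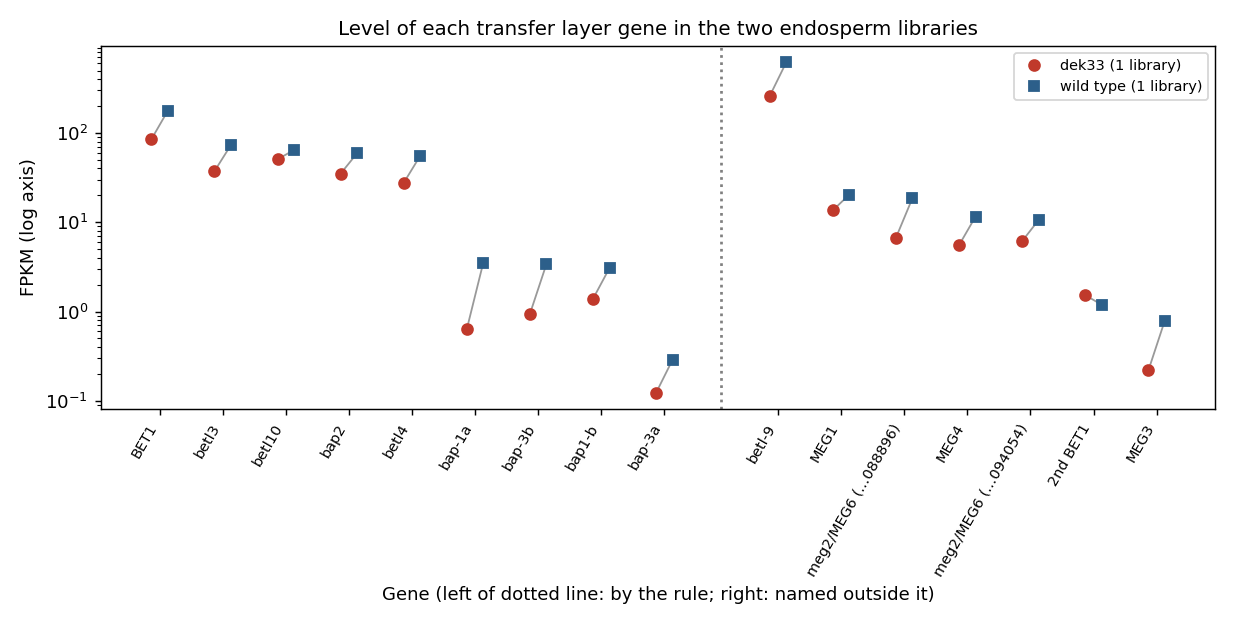
FPKM of each transfer layer gene on a log axis in the dek33 library (circles) and the wild type library (squares), 1 value each, with a line joining the values of a gene. Of the 16 genes, 15 lie lower in dek33, and the copy beside BET1, at 1.53 against 1.19 FPKM, is the exception.

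A ratio of 2 genes within a library does not depend on how the libraries were scaled to each other. For betl3 and betl4 this ratio hardly differed between the libraries. The level of betl3 relative to BET1 was 0.440 in dek33 and 0.413 in wild type. That of betl4 relative to BET1 was 0.326 in dek33 and 0.313 in wild type. Relative to BET1, bap2 stood at 0.413 in dek33 and 0.335 in wild type. The gene betl10 moved furthest of the abundant genes, at 0.597 of BET1 in dek33 and 0.364 in wild type, a factor of 1.64. The share of betl10 in the summed FPKM of the 9 genes was 21.2% in dek33 and 14.7% in wild type, while that of BET1 was 35.5% in dek33 and 40.3% in wild type.

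**Figure D2:**
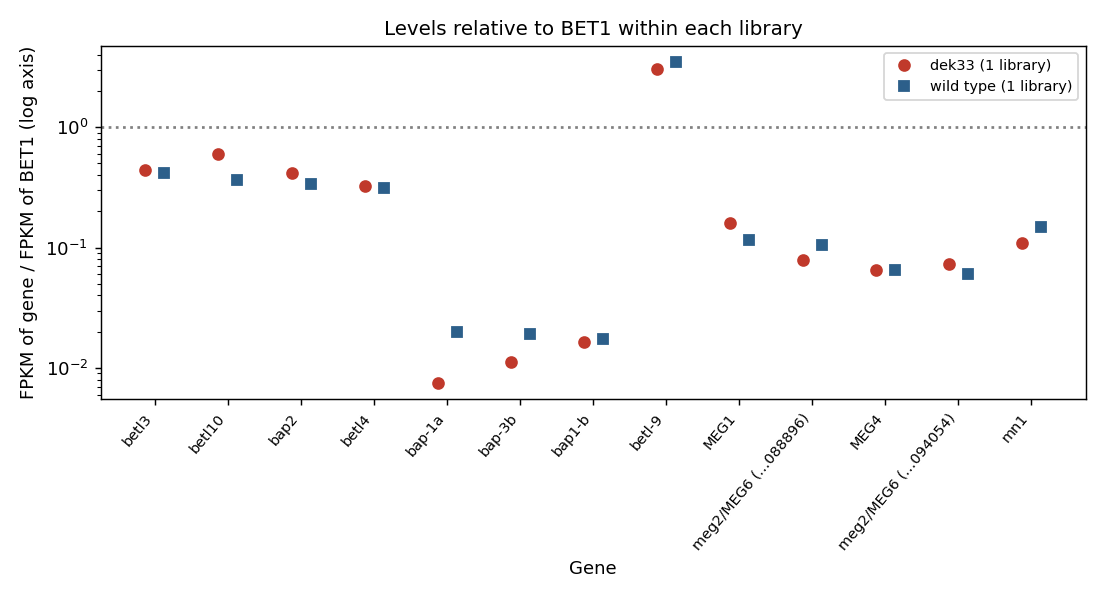
FPKM of each gene divided by the FPKM of BET1 in the same library, on a log axis, for dek33 (circles) and wild type (squares), 1 value each; the dotted line marks equality with BET1. The values of betl3, betl4 and MEG4 nearly coincide between the libraries, betl10 is higher in dek33 at 0.597 against 0.364, and bap-1a is lower at 0.00756 against 0.0200. The genes bap-3a, MEG3 and the copy beside BET1 are not drawn; the copy stood at 0.0180 of BET1 in dek33 and 0.00673 in wild type.

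The 4 basal layer antifungal peptide genes of chromosome 10 lie within 205 kb, between 80861842 and 81066359, with 4 uncharacterized genes among them. They encode close relatives of bap2. The gene bap-1a (GRMZM2G008271) had 0.642 FPKM in dek33 and 3.53 FPKM in wild type, a 5.51-fold lower level in the mutant. The gene bap-3b (GRMZM2G133370) had 0.948 FPKM in dek33 and 3.40 FPKM in wild type, and bap1-b (GRMZM2G008403) had 1.40 FPKM in dek33 and 3.07 FPKM in wild type. The gene bap-3a (GRMZM2G133382) was near the bottom of both libraries, with 0.124 FPKM in dek33 and 0.289 FPKM in wild type. The 3 genes that exceeded 3 FPKM in wild type were close to each other there, and in dek33 they spread from 0.642 to 1.40 FPKM. Summed over the cluster, FPKM was 3.11 in dek33 and 10.3 in wild type, a 3.31-fold lower sum in the mutant. The number of reads behind these low values is unknown, and the copies can exchange reads, so single values of the cluster are uncertain and no order among them is read.

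To set these differences against all genes, the log2 ratio log2((dek33 + 1)/(wild type + 1)) was used. It was called lower or higher at a 2-fold difference or more in genes with at least 5 FPKM in 1 or both libraries. A gene that reached 5 FPKM in 1 library alone could only be higher in that library, so its direction was fixed by this minimum. By this rule, 4.02% of 14348 genes were lower in dek33 and 14.8% were higher. Of the 5 transfer layer genes that reached 5 FPKM, BET1 was called lower at a log2 ratio of -1.05, 0 were called higher and 4 were neither. The genes next to the limit were betl4 at -0.97 and betl3 at -0.95, followed by bap2 at -0.74 and betl10 at -0.34. The count of 1 in 5 thus rests on differences of a few hundredths of a log2 unit and is not read as a contrast between BET1 and betl4.

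Most genes had higher FPKM in dek33, with a median log2 ratio of 0.44 over the 21688 genes with at least 1 FPKM in 1 or both libraries. The transfer layer genes lay on the other side of 0. Their median was -0.96 over the 8 genes that reached 1 FPKM, and all 8 were below the median of all genes. Of these, bap-1a and bap-3b reached 1 FPKM in wild type alone, so this minimum allowed them only values below 0. Over the 5 genes that reached 5 FPKM the median was -0.95, and all 5 were below the median of all genes. With the median of all genes subtracted, 4 of the 5 genes were called lower, where 6.79% of all genes were called lower, and 4.4% were called higher. Their log2 ratios were then -1.49 for BET1, -1.41 for betl4, -1.39 for betl3 and -1.18 for bap2, while betl10 at -0.78 did not pass. Among the 14348 genes, 3.80% had a log2 ratio below that of BET1 and 9.26% had one below that of betl10.

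**Figure D3:**
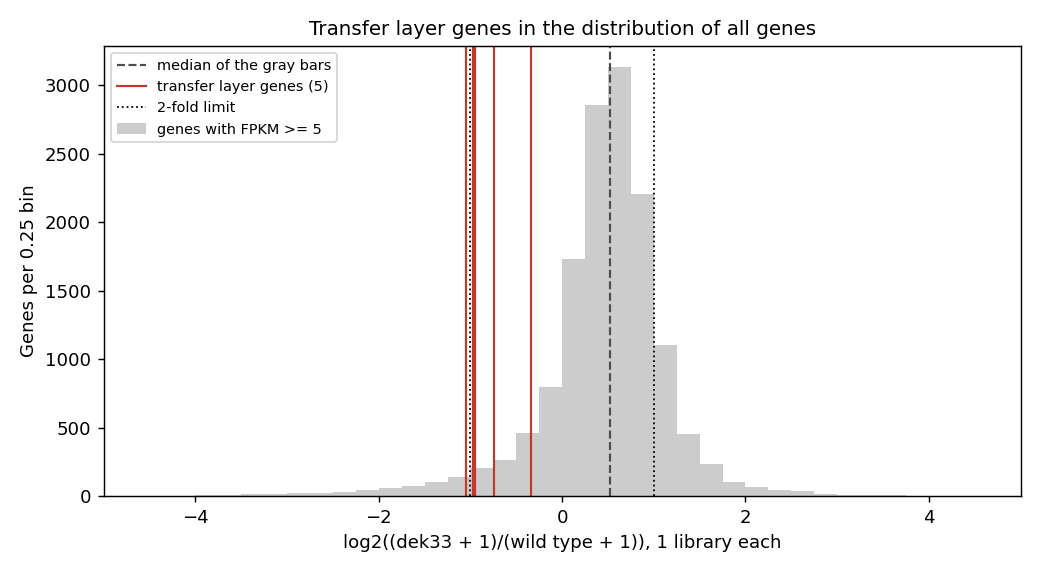
Number of genes per 0.25 bin of the log2 ratio, dek33 over wild type, for 14348 genes with at least 5 FPKM in 1 or both libraries, with the transfer layer genes as solid lines, the median of these genes (0.52) as a dashed line and the 2-fold limits as dotted lines. The axis is drawn from -5 to 5. The 5 transfer layer genes, from -1.05 to -0.34, all lie left of the median, and 3 of them lie beside the 2-fold limit.

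Another 7 genes carry transfer layer names in the descriptions or in the RefSeq gene table but lie outside the selection. They were picked with their values in view. The most abundant of all was betl-9 (GRMZM2G087413, chromosome 3, 138651695 to 138652380), a further transfer layer transcript, with 260 FPKM in dek33 and 616 FPKM in wild type, a 2.37-fold lower level in the mutant. It was above BET1 in both libraries, at 3.06 times the level of BET1 in dek33 and 3.48 times in wild type.

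The MEG genes, whose founding member MEG1 encodes a secreted peptide that promotes transfer cell formation and is imprinted, with expression from the maternal copy, form a cluster of 5 on chromosome 7 between 12591109 and 13074744. MEG1 (GRMZM2G354335) had 13.6 FPKM in dek33 and 20.4 FPKM in wild type. RefSeq joins GRMZM2G088896 and GRMZM2G094054 under the names meg2 and MEG6. GRMZM2G088896 had 6.73 FPKM in dek33 and 18.6 FPKM in wild type, and GRMZM2G094054 had 6.16 FPKM in dek33 and 10.6 FPKM in wild type. All of these lay lower in dek33, GRMZM2G088896 by a factor of 2.76. MEG4 (GRMZM2G137959) had 5.55 FPKM in dek33 and 11.6 FPKM in wild type. MEG3 (GRMZM2G344323) stayed under 1 FPKM, with 0.220 in dek33 and 0.794 in wild type. The cluster summed to 32.3 FPKM in dek33 and 61.9 FPKM in wild type, a 1.92-fold lower sum in the mutant and a factor near that of BET1, betl3 and betl4. Its members are close copies, and their single values share the uncertainty given above. Of the 5 genes outside the selection that reached 5 FPKM, betl-9 and GRMZM2G088896 were called lower, 0 were called higher and 3 were neither. The shares of all genes were 4.02% lower and 14.8% higher. With the median of all genes subtracted, 4 of the 5 were called lower and 0 higher, against 6.79% and 4.4% of all genes.

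Among the listed genes of sugar entry and signalling, mn1 and tcrr-1, which are known from transfer cells, were lower in dek33, while other members of their families lay in either direction. The cell wall invertase mn1 (GRMZM2G119689, chromosome 2) had 9.28 FPKM in dek33 and 26.1 FPKM in wild type, a 2.81-fold lower level in the mutant. The other cell wall invertases lay the other way, with incw1 (GRMZM2G139300) at 9.05 FPKM in dek33 and 3.39 FPKM in wild type, and GRMZM2G119941 at 6.36 FPKM in dek33 and 3.22 FPKM in wild type. Of these 3 genes, mn1 was thus called lower, incw1 higher and GRMZM2G119941 neither, where 4.02% of all genes were called lower and 14.8% higher. Both incw1 and GRMZM2G119941 reached 5 FPKM in dek33 alone, so the minimum fixed their direction. After subtraction of the median of all genes incw1 was no longer called.

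Among 4 genes described as MtN3-like, the family of SWEET sugar transporters, 3 reached 5 FPKM, and 2 of them were called higher and 1 lower. The shares of all genes were 14.8% higher and 4.02% lower. GRMZM2G015976 had 60.3 FPKM in dek33 and 11.3 FPKM in wild type, and GRMZM2G168365 had 37.4 FPKM in dek33 and 5.64 FPKM in wild type. GRMZM2G368827 had 2.04 FPKM in dek33 and 6.50 FPKM in wild type, and it reached 5 FPKM in wild type alone, so the minimum fixed its direction. The remaining gene was listed at 0 in dek33 and had 0.0617 FPKM in wild type. The files do not show whether any of them is a transfer layer transporter.

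Response regulators pass on cytokinin signals, and tcrr-1 (GRMZM2G016145) is known from transfer cells. It had 2.37 FPKM in dek33 and 7.62 FPKM in wild type. Of the 5 listed response regulators at 5 FPKM or more, it was the 1 called lower, with 0 higher. The shares of all genes were 4.02% lower and 14.8% higher. However, tcrr-1 reached 5 FPKM in wild type alone, so the minimum fixed its direction. The most abundant of the 5 in wild type, GRMZM2G032496 (crr5), had 15.2 FPKM in wild type and a log2 ratio of -0.21. Another gene listed under crr5, GRMZM6G980248, had 11.7 FPKM in dek33 and 8.57 FPKM in wild type. GRMZM2G091597, also under crr5, lay higher in dek33 by less than the limit, with a log2 ratio of 0.35. MRP-1 was not analysed here.

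Embryo and zein genes were also lower in dek33 for the most part, and their part in the result was not tested. Of 16 genes of the embryo list at 5 FPKM or more, 12 were called lower and 1 higher in dek33, against 4.02% and 14.8% of all genes. The median log2 ratio was -2.89 over the 17 genes of the list. Their sum was 651 FPKM in dek33 and 9408 FPKM in wild type, and none of the 17 was listed at 0. Globulin-2 (GRMZM2G026703), an embryo storage protein, had 4.53 FPKM in dek33 and 700 FPKM in wild type. EMB564, a late embryogenesis protein and the most abundant of the list in wild type, had 53.2 FPKM in dek33 and 3482 FPKM in wild type. The oleosin gene ole1 had 251 FPKM in dek33 and 2332 FPKM in wild type. The 1 higher gene was a non-symbiotic hemoglobin with 15.5 FPKM in dek33 and 1.13 FPKM in wild type. It shares its synonym with globulin-1 and is not an embryo marker, yet the counts, median and sums above include it. The highest ratio after it was that of GRMZM2G000777, a late embryogenesis gene with 15.8 FPKM in dek33 and 7.98 FPKM in wild type.

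The zein list was made up of storage proteins of the starchy endosperm and 1 protein body membrane protein (GRMZM2G094532). In it, 13 of 20 genes were called lower and 3 higher, against 4.02% and 14.8% of all genes. The 3 higher ones were listed at 0 in wild type, where an exact 0 can be a failed estimate. The list summed to 126956 FPKM in dek33 and 210087 FPKM in wild type. Without those 3 genes it summed to 68257 FPKM in dek33 and 210087 FPKM in wild type, 3.08-fold lower in dek33. Aleurone genes of at least 1 FPKM did not have lower FPKM in dek33. Their 4 log2 ratios, from 0.18 to 0.41, were above 0 but below the median of all genes. C1 and A1 stayed under 1 FPKM in both libraries and were lower in dek33. C1 had 0.707 FPKM in dek33 and 0.922 FPKM in wild type, and A1 had 0.0766 FPKM in dek33 and 0.568 FPKM in wild type. Of the 6 aleurone genes, 2 reached 5 FPKM and neither was called. The vacuolar pyrophosphatase gene vpp1 (GRMZM2G069095) had 53.4 FPKM in dek33 and 45.4 FPKM in wild type, and dek1 (GRMZM2G321753), required for aleurone identity, had 27.4 FPKM in dek33 and 22.6 FPKM in wild type. The aleurone list summed to 88.3 FPKM in dek33 and 74.7 FPKM in wild type, and none of its genes was listed at 0.

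The embryo surrounding region lies at the same pole of the endosperm as the transfer layer. Of its 6 listed genes, 2 reached 5 FPKM. The CLE peptide gene GRMZM2G315601 (ESR2B) was called lower, with 3.66 FPKM in dek33 and 11.3 FPKM in wild type. It reached 5 FPKM in wild type alone, so the minimum fixed its direction. The defensin gene esr-6 had 7.32 FPKM in dek33 and 7.29 FPKM in wild type. The list summed to 11.1 FPKM in dek33 and 19.9 FPKM in wild type. Among its defining genes, esr1 and ae3 were listed at 0 in dek33 and ae1 in wild type, each with under 0.4 FPKM in the other library. ESR3 (GRMZM2G140302) had 0.125 FPKM in dek33 and 0.906 FPKM in wild type.

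**Figure D4:**
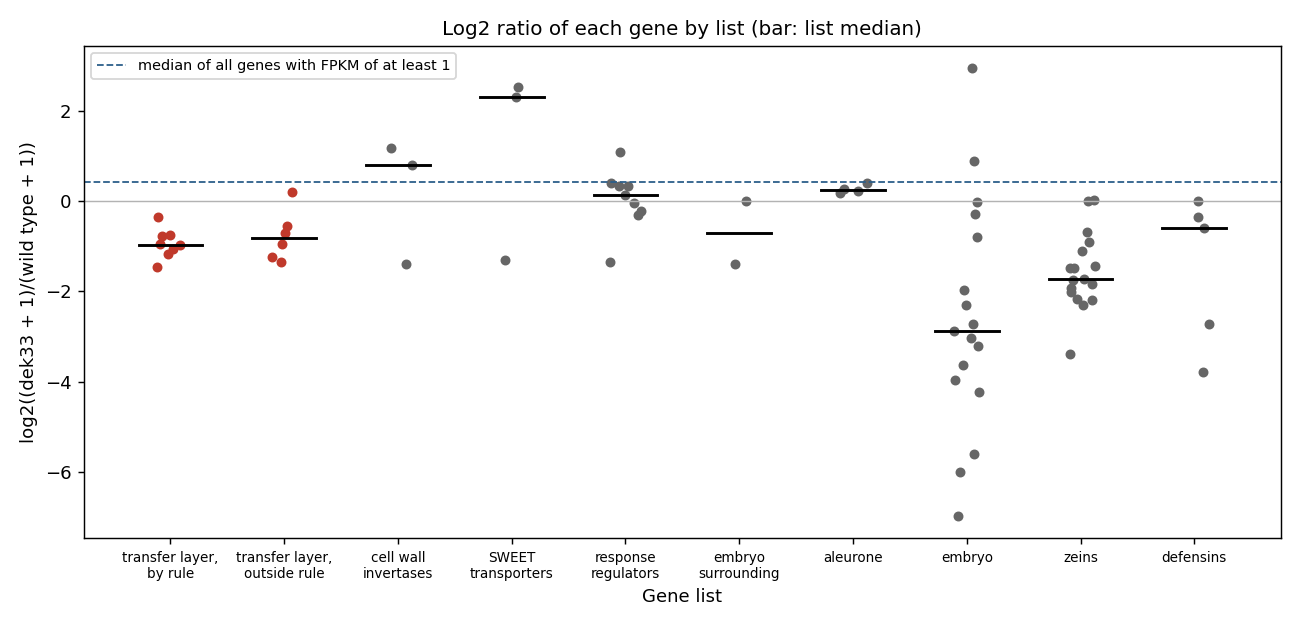
Log2 ratio of each gene with at least 1 FPKM in 1 or both libraries, by gene list, with bars at the list medians and a dashed line at the median of all genes (0.44). Genes listed at 0 in a library are left out, which removes 3 zeins and no expressed gene of another list. The 8 drawn transfer layer genes, from -1.47 to -0.34, all lie below the dashed line. Of them, bap-1a and bap-3b reached 1 FPKM in wild type alone and could lie only below 0. The drawn aleurone genes lie near that line and below it. The embryo list spreads from -6.99 to 2.95, across the range of the transfer layer genes. Its value of 2.95 is that of the non-symbiotic hemoglobin, which is not an embryo marker, and the next highest is 0.90.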

How the data were processed

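The authors deposited 1 FPKM value for each gene and library. The submitters' processing notes name Bowtie 0.12.2 and B73 RefGen_v3. The FPKM program, annotation, filters and pooling are not stated, and the depth is unknown, so no counting interval is given. A value of 1e-05 marks a gene listed at 0. Gene names come from the descriptions and from the RefSeq table of another assembly (NAM-5.0), which supplied names alone and matched all 9 members. Coordinates follow the files, with each start raised by 1, which makes 77.9% of 610 short gene models a multiple of 3 bases long, against 10.7% as printed. Log2 ratios used a pseudocount of 1, which makes the change of low genes look smaller. Medians used genes with at least 1 FPKM in 1 or both libraries, and calls used those with at least 5. All 9 members and the 7 genes outside the selection were named. In each other list the rule was to name at most the 2 highest, 2 lowest and 2 most abundant genes. Some genes beyond this rule were named too, such as GRMZM2G437040, GRMZM2G094532 and genes of the aleurone and embryo surrounding lists under 5 FPKM. Members and lists were chosen with earlier results of these data known. Alternatives were other pseudocounts, minimums and scalings and a 4-fold limit. Promoter and protein sequences were not used here. The code was tested on simulated data and run with Python 3.11.15 (numpy 2.4.6; pandas 2.3.3; matplotlib 3.10.9).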

Additional observations from a re-analysis of the deposited data

How the results depend on the processing

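The scaling between libraries decided how many of the 5 transfer layer genes at 5 FPKM or more passed the 2-fold limit. The count of lower genes was 1 as deposited and 4 when centred on the median of all genes, scaled by a trimmed mean of M values (trimming 30% of M and 5% of A on each side) or scaled to equal totals without zeins. The log2 ratio of summed FPKM was -0.88 as deposited and -1.32, -1.35 and -1.33 under these 3 scalings, in that order. Without a minimum FPKM the count was 3, which adds bap-1a and bap-3b. With the 4-fold limit it was 0, since the lowest of the 5 genes, BET1 at a log2 ratio of -1.05, did not reach a 4-fold difference. With the 7 genes named outside the selection, an alternative chosen after seeing the data, the count was 3 and the summed log2 ratio -1.07. No transfer layer gene was called higher in any of these settings. Among all genes, 4.02% were called lower as deposited and 6.79% when centred. The share under the other scalings, without a minimum and at the 4-fold limit is not given. Counts under those settings therefore cannot be set against all genes. The median log2 ratio stayed between -1.40 and -0.64 in all settings run and within the range of the members. A pseudocount cannot turn the sign of a ratio, and the 3 scalings lower every dek33 value alike, so none of these settings could have turned the direction of the 9 genes. With a pseudocount of 5, bap-1a gave -0.60 and bap-3b -0.50, and with one of 0.1 they gave -2.29 and -1.74, so the sizes of these low genes depend on it. Leaving out members listed at 0 removed none. No paired analysis was possible because there is only 1 library for each genotype, and no replicate could be left out for the same reason.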

Other observations

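The 4 uncharacterized genes that lie between the basal layer antifungal peptide genes on chromosome 10 were also lower in the dek33 library. They were looked at after the values of the cluster had been seen. GRMZM2G054359 (80919770 to 80920341) had 2.50 FPKM in dek33 and 10.5 FPKM in wild type, above any of the 4 antifungal peptide genes in both libraries. GRMZM2G034862 (81033351 to 81034073) had 0.375 FPKM in dek33 and 3.77 FPKM in wild type, and GRMZM2G058703 had 1.38 FPKM in dek33 and 4.10 FPKM in wild type. GRMZM2G054397 had 0.923 FPKM in dek33 and 1.75 FPKM in wild type. Their descriptions give no function.

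Around the 9 transfer layer genes as a whole, the nearest other genes did not lie in 1 direction. Of the 13 nearest genes without a transfer layer name, 11 reached 1 FPKM, with a median log2 ratio of -0.26 against 0.44 for all genes. Of these 11, 6 lay below 0. At 5 FPKM or more there were 6 genes, of which 2 were called lower and 1 higher, against 4.02% and 14.8% of all genes. Those called lower were AC196417.3_FG008 beside betl10, with 11.5 FPKM in dek33 and 35.5 FPKM in wild type, and GRMZM2G123411 beyond bap-3a, with 41.1 FPKM in dek33 and 99.4 FPKM in wild type. The higher one, GRMZM2G000481 beside bap2, had 18.0 FPKM in dek33 and 7.67 FPKM in wild type.

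Defensins other than betl10 differed widely. Defensin-like protein 1 (GRMZM2G368890) had 45.6 FPKM in dek33 and 642 FPKM in wild type, and defensin-like protein 2 (GRMZM2G368861) had 47.5 FPKM in dek33 and 318 FPKM in wild type. These 2 genes are printed with the same locus in the files, and that locus spans both. Another listed gene, GRMZM2G368902, overlaps it, and how the reads were divided among these genes is unknown. The defensin gene GRMZM2G437040 on chromosome 4 had 50.1 FPKM in dek33 and 76.1 FPKM in wild type, a smaller difference. The defensin gene esr-6, given above, hardly differed, with 7.32 FPKM in dek33 and 7.29 FPKM in wild type. GRMZM2G437040 was chosen after its values were seen.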
